A study of Homo sapiens with 8 samples.

Results

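The OTX2 locus was examined in the human embryonic stem cell line WA09 by chromatin immunoprecipitation followed by sequencing (ChIP-seq) of SMAD2 and TEAD4. The members are the called regions that touch a 350 kb window of hg19 chromosome 14, from 57100000 to 57450000, which holds OTX2 at 57267425 to 57277194. They number 145 of 972037 regions in 3 lists: 57 of 420548 for SMAD2 in DMSO cells, 47 of 262109 for TEAD4 in SB431542 cells and 41 of 289380 for TEAD4 in DMSO cells. The locus was chosen by the row numbers of the SMAD2 list, since row 4 of it lies in the window, so the presence and the rank of that region are a description and support nothing.

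WA09 cells were grown on Matrigel in medium conditioned by embryonic fibroblasts (MEF) and kept for 4 h in 10 µM SB431542 or in its solvent DMSO. There was 1 library per group, from a single line, so no value has a replicate error. The labels also name SMAD2 in SB431542 cells, normal rabbit IgG and input DNA, which were not analysed here. The lists hold positions without score or read count. Depth is unknown, and a region missing from a list was not called at an unstated threshold. Whether the cells carry their defining markers could not be checked from such lists.

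OTX2 is a homeodomain transcription factor. In the mouse it is needed for the forebrain and the anterior body plan, and it acts in the early epiblast when cells leave naive pluripotency. SMAD2 is phosphorylated by receptors for activin, Nodal and TGF-β, whose kinase SB431542 inhibits, and then enters the nucleus with SMAD4, where it reaches DNA together with partner factors such as FOXH1. TEAD4 is a DNA-binding factor that recruits the Hippo pathway effectors YAP and TAZ. OTX2 is transcribed towards lower coordinates, so that positions above 57277194 are upstream of its 5′ end and positions below 57267425 lie past its 3′ end. In RefSeq's order on GRCh38 its coding neighbours are TMEM260 on the 3′ side and EXOC5 on the 5′ side, and OTX2-AS1, a long non-coding RNA gene, follows it directly on the 5′ side. Exons and introns of hg19 were not analysed here.

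RefSeq lists 2 start sites for OTX2 on GRCh38.p14. The 250 bases before each are shown because SMAD2 regions lay close to the 5′ end of the gene and TEAD4 regions of SB431542 cells lay inside it. Capitals mark the SMAD core letters CAGAC and the TEAD core letters GGAATG on either strand (GTCTG and CATTCC on the other strand). These motifs did not overlap. The first lies at chr14:56810480-56810729 and the second at chr14:56805668-56805917, both on the minus strand and written 5′ to 3′ along the gene.
OTX2 start site 1: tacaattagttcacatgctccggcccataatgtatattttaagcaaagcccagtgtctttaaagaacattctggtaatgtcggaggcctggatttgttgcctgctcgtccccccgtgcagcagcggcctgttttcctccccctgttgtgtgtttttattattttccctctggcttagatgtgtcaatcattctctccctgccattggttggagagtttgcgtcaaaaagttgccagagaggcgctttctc
OTX2 start site 2: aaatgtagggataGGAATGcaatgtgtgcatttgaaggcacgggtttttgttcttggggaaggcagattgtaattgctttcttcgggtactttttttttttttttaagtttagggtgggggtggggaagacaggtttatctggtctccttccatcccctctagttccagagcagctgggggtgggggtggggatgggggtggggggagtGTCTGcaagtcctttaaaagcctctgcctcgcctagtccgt

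Neither set of letters was found before start site 1. Before start site 2 the TEAD core began 237 bases and the SMAD core 41 bases upstream of the start. Of 35116 RefSeq promoters of this length, 13345 (38.0%) held the SMAD core and 4175 (11.9%) the TEAD core. A match is not a binding site, and the called regions, which are on hg19, were not placed on these GRCh38 sequences.

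The number of regions around OTX2 was ordinary for SMAD2 and for TEAD4 in DMSO cells, and higher than in most places for TEAD4 in SB431542 cells. SMAD2 had 57 regions (16.3 per 100 kb), 1.08-fold the mean of 252 windows of 350 kb laid end to end along chromosome 14, and 76 of those windows held at least as many. TEAD4 had 47 regions in SB431542 cells (13.4 per 100 kb), 1.46-fold the mean, and 19 of 252 windows held as many (542 of 8135 over the genome, 6.66%). TEAD4 had 41 regions in DMSO cells (11.7 per 100 kb), 1.14-fold the mean, with 68 windows at or above. The exact 95% Poisson intervals of the 3 numbers, 43.2 to 73.9, 34.5 to 62.5 and 29.4 to 55.6, cover counting error only. Because the lists differ in length, these intervals do not compare one list with another, and each number is read against the mean of its own list. The lists differ in how they were made: all DMSO starts, but 1.97% of SB431542 starts, are multiples of 50 bp. A difference between SB431542 and DMSO therefore cannot be told apart from a difference between lists.

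The rows of each list were read as a ranking, since the median width fell along it, at 249 bp in the first 10% of rows and 99 bp in the last for SMAD2, 198 and 106 bp for TEAD4 in SB431542 cells, and 299 and 99 bp for TEAD4 in DMSO cells. Within long runs of rows, however, regions stood in descending order of chromosome and position. The median region of the window stood in such a run of 159 rows for SMAD2, 415 rows for TEAD4 in SB431542 cells and 676 rows for TEAD4 in DMSO cells, and the longest run that held a window region had 8992, 1647 and 11104 rows in that order of lists. Order within a run carries no rank, so nearby row numbers should be read as one place.

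**Figure D1:**
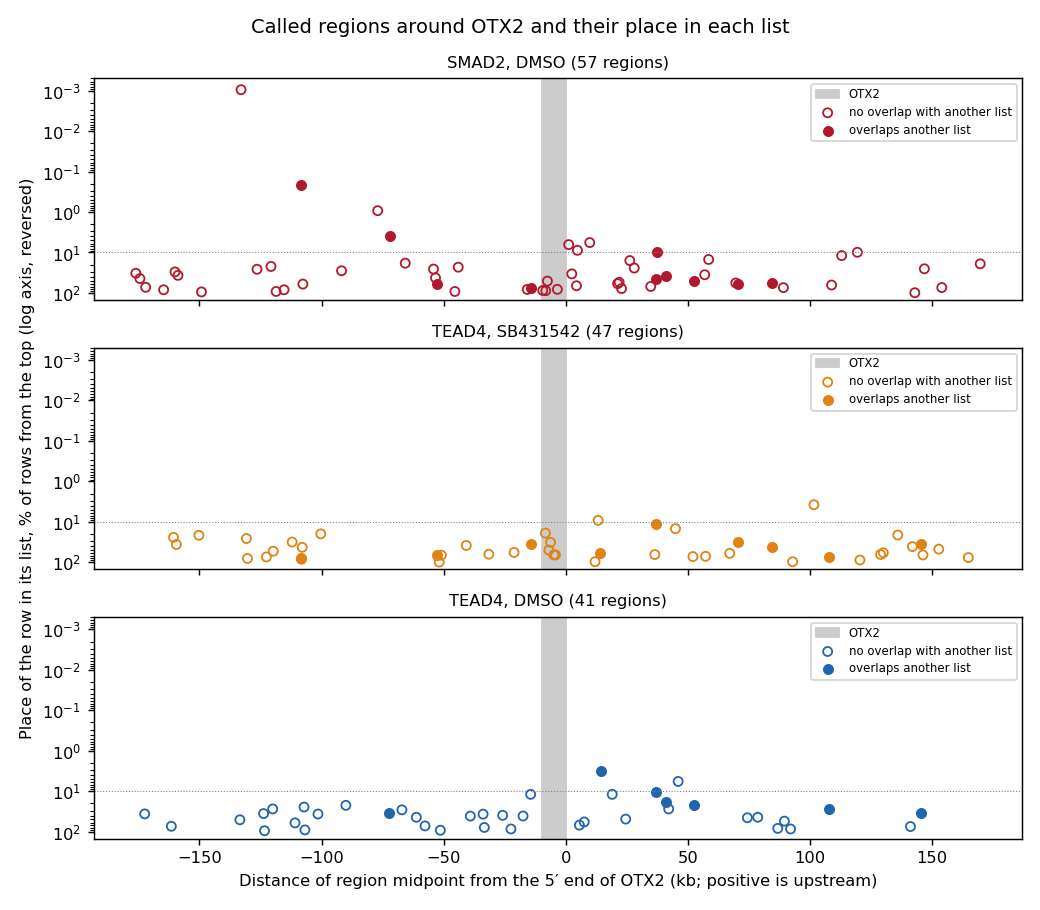
Each point is a called region of the OTX2 window, at the distance of its midpoint from the 5′ end of OTX2 (kb, positive is upstream) and at the place of its row in its list (percent of rows, log axis reversed so that the head of the list is on top). Filled points overlap a region of another list, the grey band is OTX2, and the dotted line marks the first 10% of rows. The 4 SMAD2 regions nearest the top of their list all lie on the 3′ side of OTX2, between 62.3 and 123 kb from the gene.

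The 4 highest-placed SMAD2 regions lay past the 3′ end of OTX2. The leading one, row 4 at 57144101 to 57144399, lay 123 kb from the gene. It was 299 bp wide, which is also the median of the first 100 SMAD2 rows. Row 880 lay at 57168651 to 57168899, row 3899 at 57200051 to 57200299 and row 16393 at 57204901 to 57205149. These 4 spanned 61.0 kb, the nearest of them 62.3 kb from the gene. The next 5 in rank all lay upstream: row 23933 at 57286851 to 57287099, row 26862 at 57278201 to 57278499, row 37123 at 57281851 to 57282049, row 39890 at 57314301 to 57314499 and row 41575 at 57396401 to 57396649. Regions in the first 10% of rows thus numbered 9 of 57 (15.8%, exact 95% interval 7.48 to 27.9%), beside 10.0% of the list by construction. The interval includes that 10.0%, and the 9 include row 4, by which the window was chosen. Of the SMAD2 regions, 3 stood in the first 1% of rows, which holds 1.00% of the list by construction. As many were found in 157 of 8135 windows of 350 kb over the genome (1.93%), and the window was chosen with 1 of them in view.

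No TEAD4 region of the window was in the first 1% of rows of either list, which is the usual count. Windows of 350 kb with at least 1 such region numbered 1435 of 8135 over the genome (17.6%) for SB431542 cells and 2313 (28.4%) for DMSO cells. The first TEAD4 regions of SB431542 cells were row 9906 at 57378650 to 57378847 and row 24091 at 57290333 to 57290530, followed by row 30331 at 57313971 to 57314168, row 38573 at 57321987 to 57322163 and row 49757 at 57268725 to 57268897. The first of DMSO cells were row 9160 at 57291251 to 57291549 and row 16614 at 57322951 to 57323399, followed by row 29699 at 57313901 to 57314399, row 34637 at 57296051 to 57296299 and row 34638 at 57262651 to 57262949. Under both treatments the 3 highest-placed TEAD4 regions lay upstream of OTX2, the side opposite to the 4 leading SMAD2 regions. This contrast rests on those few regions. In the first 10% of rows SMAD2 had 4 regions past the 3′ end and 5 upstream. The median places past the 3′ end and upstream were 36.7% and 42.4% of the list for SMAD2. They were 53.2% and 58.0% for TEAD4 in SB431542 cells, and 41.0% and 39.8% in DMSO cells. Rows 34637 and 34638 of DMSO cells stood in the same sorted run, and lay upstream and past the 3′ end. In the first 10% of rows were 2 of 47 regions in SB431542 cells (4.26%, exact 95% interval 0.520 to 14.5%) and 2 of 41 in DMSO cells (4.88%, 0.596 to 16.5%), and both intervals include the 10.0% that each list holds by construction. The median place of all window regions was 44.1% of the list for SMAD2, 57.1% for TEAD4 in SB431542 cells and 41.0% for TEAD4 in DMSO cells, so that the members as a whole were spread through the lists.

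The leading SMAD2 region overlapped no TEAD4 region of either treatment. Lack of overlap is usual: over the list, 3.39% of SMAD2 regions met TEAD4 of SB431542 cells and 5.29% met TEAD4 of DMSO cells. The nearest TEAD4 region of SB431542 cells began 1.995 kb above the leading region, at 57146395 to 57146517 (row 67739). The nearest on the other side was 17019 bp away, at 57126903 to 57127081 (row 56332). The nearest TEAD4 region of DMSO cells ended 251 bp below the leading region, at 57143701 to 57143849, but far down its list (row 147235). On chromosome 14, 15.6% of SMAD2 regions had a TEAD4 region of DMSO cells within 500 bp. The next one above the leading region was 8.95 kb away, at 57153351 to 57153599 (row 103513). The nearest SMAD2 neighbours were also low in rank, 6.30 kb above at 57150701 to 57150849 (row 109250) and 16.0 kb below at 57128001 to 57128099 (row 396235).

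Row 880, the second SMAD2 region, had TEAD4 regions of SB431542 cells at both of its ends. One, at 57168513 to 57168651 (row 202366), shared 1 bp with it, and another, at 57168903 to 57169028 (row 219588), began just past its end. Both were in the last part of their list. The TEAD4 regions of DMSO cells closest to it, at 57169901 to 57170149 (row 71382), did not touch it. Row 3899 met no TEAD4 region, whereas row 16393 overlapped the TEAD4 region of DMSO cells at 57204801 to 57205099 (row 100780) by 199 bp.

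OTX2 itself held SMAD2 regions and TEAD4 regions of SB431542 cells, but no TEAD4 region of DMSO cells. The 4 SMAD2 regions in the gene lay at 57267701 to 57267799 (row 365624), 57268901 to 57268999 (row 369551), 57269601 to 57269699 (row 214020) and 57273651 to 57273799 (row 342233). All of them were past the middle of the list and 99 or 149 bp wide. The 5 TEAD4 regions of SB431542 cells lay at 57268725 to 57268897 (row 49757), 57270188 to 57270340 (row 130620), 57270851 to 57271022 (row 84299), 57272173 to 57272331 (row 171546) and 57272870 to 57273029 (row 172424). The first of these ended just before the SMAD2 region that starts at 57268901, and no SMAD2 region of the gene overlapped a TEAD4 region.

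Few stretches of the gene's length were as rich in TEAD4 regions of SB431542 cells. Of 9013 stretches of 9770 bp laid along chromosome 14, 43 (0.477%) held at least 5 such regions, and in 21 of these there was no TEAD4 region of DMSO cells. At least 4 SMAD2 regions were found in 573 of the stretches (6.36%). The absence of TEAD4 in DMSO cells from the gene was itself common: 3625 stretches (40.2%) held none. The stretch without TEAD4 regions of DMSO cells ran from 57262950 to 57282700, 19.8 kb, and 13.9% of the gaps between TEAD4 regions of DMSO cells on the chromosome were as long. In it lay 9 SMAD2 regions and 6 TEAD4 regions of SB431542 cells. The gene was looked at with these lists known, and the shares describe how common such counts are and are not a test.

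**Figure D2:**
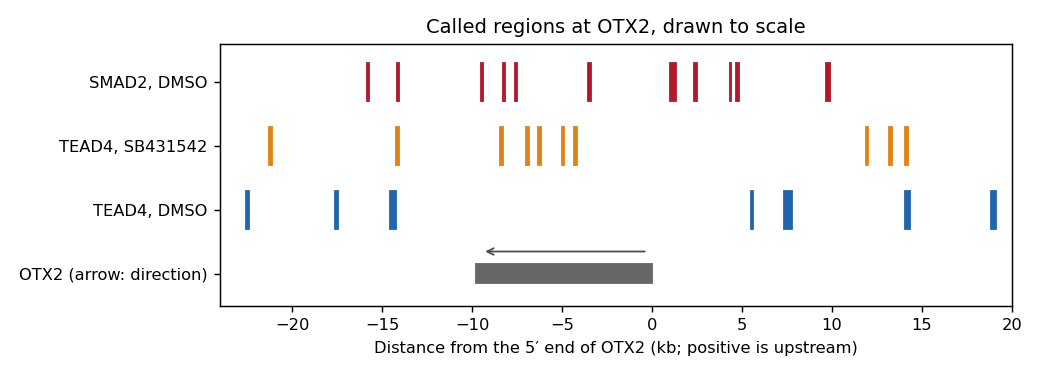
Called regions are drawn to scale in 3 rows around OTX2 (grey bar, the arrow gives its direction), by distance from its 5′ end (kb, positive is upstream). The gene holds 4 SMAD2 regions, 5 TEAD4 regions of SB431542 cells and 0 TEAD4 regions of DMSO cells.

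In the 5 kb upstream of the 5′ end, SMAD2 was the one factor called. Its 4 regions there lay at 57278201 to 57278499 (row 26862), 57279551 to 57279699 (row 142109), 57281501 to 57281599 (row 279177) and 57281851 to 57282049 (row 37123). The nearest to the gene, 299 bp wide, began 1.01 kb upstream of it and ranked in the top 10% of rows. The absence of TEAD4 depends on the limit of 5 kb, since a region of DMSO cells (row 199977) began 5.51 kb upstream. The first of SB431542 cells (row 253234) began 11.9 kb upstream. Such gaps are common: the median gap on chromosome 14 was 5.35 kb for TEAD4 in DMSO cells and 6.88 kb in SB431542 cells. How many stretches of 5 kb hold 4 SMAD2 regions and no TEAD4 region was not counted. In the 5 kb past the 3′ end each list had 1 region. SMAD2 at 57263001 to 57263149 (row 319523) and TEAD4 in SB431542 cells at 57262997 to 57263147 (row 90402) had midpoints 3 bp apart, the closest match of any pair in the window. The TEAD4 region of DMSO cells at 57262651 to 57262949 (row 34638) lay beside this pair without touching it.

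All 3 lists met at 1 place, 36.7 kb upstream of OTX2. There the TEAD4 region of SB431542 cells at 57313971 to 57314168 (row 30331) lay inside the TEAD4 region of DMSO cells at 57313901 to 57314399 (row 29699, 499 bp, the widest of the window). The SMAD2 region at 57313901 to 57314099 (row 194386) overlapped both, and a second SMAD2 region at 57314301 to 57314499 (row 39890) overlapped the TEAD4 region of DMSO cells by 99 bp. In both TEAD4 lists this place had the third lowest row of the window, 11.6% down the list in SB431542 cells and 10.3% down in DMSO cells. Regions that met both other lists numbered 1 of 57 for SMAD2, against 0.302% over the list, 1 of 47 for TEAD4 in SB431542 cells, against 0.505%, and 1 of 41 for TEAD4 in DMSO cells, against 0.516%.

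**Figure D3:**
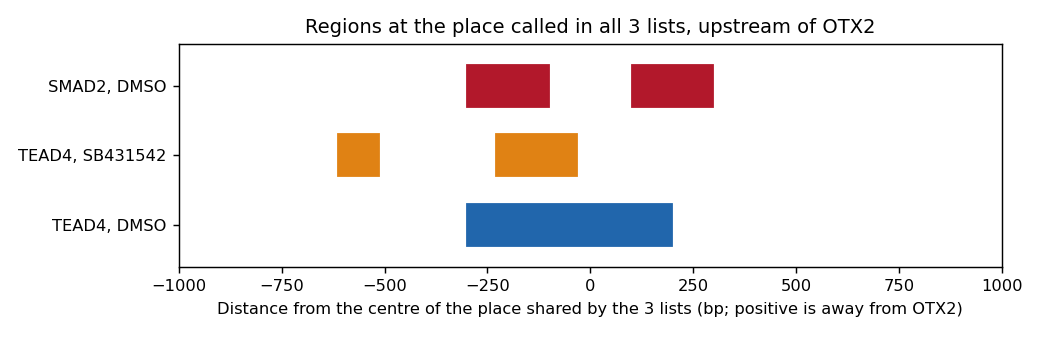
The regions called at the place shared by the 3 lists are drawn to scale by their distance from its centre (bp, positive is away from OTX2). A pair of SMAD2 regions flanks the middle of the place, and the 198 bp TEAD4 region of SB431542 cells lies inside the 499 bp TEAD4 region of DMSO cells.

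Overlap between SMAD2 and TEAD4 was infrequent, and most regions stood alone. The 145 regions fell on 131 separate places, of which 119 were called in 1 list, 11 in 2 lists and 1 in all 3 lists. Standing alone is also the usual state over the whole lists, where 3.39 to 7.67% of regions met a given other list. The number of places was not compared with other windows. Of the SMAD2 regions, 5 of 57 (8.77%, exact 95% interval 2.91 to 19.3%) met TEAD4 as called in DMSO cells, against 5.29% over the list. Of the TEAD4 regions of DMSO cells, 4 of 41 (9.76%, 2.72 to 23.1%) overlapped SMAD2, against 7.67%. Both intervals include the share of the whole list. Apart from the pairs given above, SMAD2 and TEAD4 in DMSO cells met at 57318051 to 57318199 and 57317951 to 57318149 (rows 162610 and 53216) and at 57329551 to 57329699 and 57329451 to 57329699 (rows 218586 and 62994), both upstream of OTX2.

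SMAD2 regions of DMSO cells met TEAD4 regions of SB431542 cells in 6 of 57 cases (10.5%, 3.96 to 21.5%), against 3.39% over the list, and the lower end of the interval lies just above that share. In the other direction 6 of 47 TEAD4 regions (12.8%, 4.83 to 25.7%) met SMAD2, against 5.46%, which the interval includes. Of the 6 pairs, 1 is the contact by 1 bp at row 880. When the first 50% of rows of each list were compared, 1 of the 30 SMAD2 regions then left met TEAD4 (3.33%). The other pairs had a member lower in its list. Shorter lists hold fewer partners at any locus, and the whole-list share at this setting was not computed. Whether the higher share rested on regions low in the lists was therefore not tested. Upstream of OTX2 there were pairs at 57347551 to 57347699 for SMAD2 (row 254742) with 57347629 to 57347810 for TEAD4 (row 82262), and at 57361401 to 57361549 for SMAD2 (row 235138) with 57361372 to 57361565 for TEAD4 (row 110082). A further one lay on the 3′ side, at 57224201 to 57224399 for SMAD2 (row 251516) with 57224246 to 57224443 for TEAD4 (row 170563). Counting regions with a partner within 500 bp, 15 of 57 SMAD2 regions (26.3%) had a TEAD4 region of SB431542 cells, against 12.1% on chromosome 14, and 10 of 57 (17.5%) had one of DMSO cells, against 15.6%. Of the TEAD4 regions of SB431542 cells, 16 of 47 (34.0%) had a SMAD2 region so close, against 19.3%, and 10 of 47 (21.3%) had TEAD4 of DMSO cells so close, compared with 15.8%. Of the TEAD4 regions of DMSO cells, 9 of 41 (22.0%) had a SMAD2 region, against 22.6%, and 8 of 41 (19.5%) a TEAD4 region of SB431542 cells, against 14.3%. TEAD4 regions of SB431542 cells were also denser in the window than elsewhere, as given above, and the part of density in this was not tested.

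TEAD4 regions of SB431542 and DMSO cells coincided at 4 places, all upstream of OTX2. That is 8.51% of the 47 regions of SB431542 cells (2.37 to 20.4%), against 6.39% over the list, and 9.76% of the 41 regions of DMSO cells (2.72 to 23.1%), against 5.69%. Beside the place shared by all lists these were 57291273 to 57291396 in SB431542 cells (row 151253) inside 57291251 to 57291549 in DMSO cells (row 9160), 57384745 to 57384893 (row 192471) inside 57384601 to 57384999 (row 79437), and 57422615 to 57422754 (row 94896) with 57422401 to 57422699 (row 102842). The highest TEAD4 region of SB431542 cells thus had no partner in DMSO cells, and the highest of DMSO cells had one past the middle of the SB431542 list. None of the 4 pairs shared 50% of both regions. The widths within each pair did not allow it, at 124 to 198 bp in SB431542 cells and 299 to 499 bp in DMSO cells. Regions of SB431542 cells lying wholly inside their partner covered 37.3 to 41.5% of it, so this measure cannot judge agreement.

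**Figure D4:**
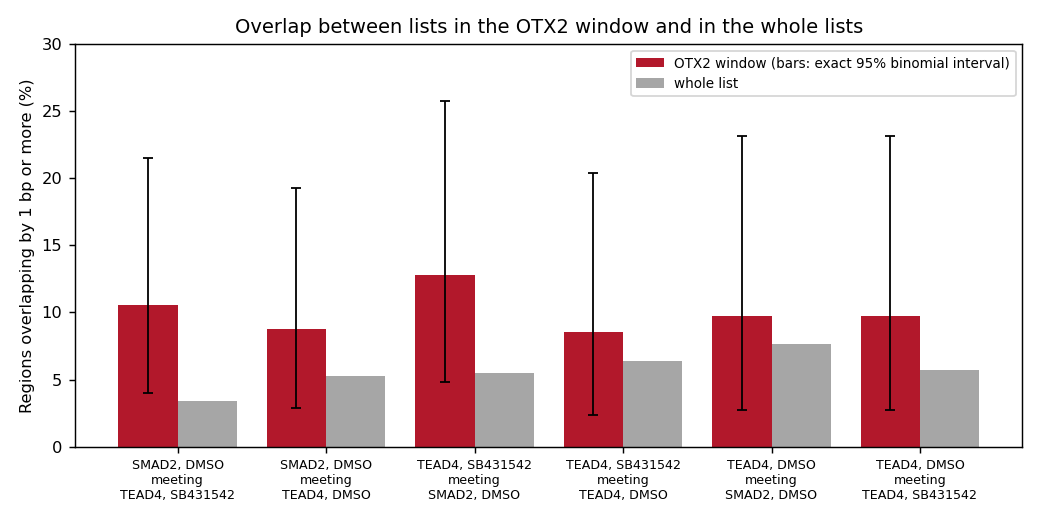
Bars give the percentage of regions of one list that overlap a region of another by at least 1 bp, in the OTX2 window (red, lines are exact 95% binomial intervals, counting error only) and over the whole list (grey). The window share is above the list share in all 6 comparisons, and in 5 of them the interval includes the list share. Each pair of lists is counted in both directions from the same overlaps, so the 6 comparisons are not separate observations. Region density in the window was above the chromosome 14 mean for SMAD2 (1.08-fold) and for TEAD4 in SB431542 (1.46-fold) and DMSO cells (1.14-fold). The part of density in the shares was not tested.

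At the edges of the window, the regions just inside were SMAD2 at 57101051 (row 137083) and 57446751 (row 80177), TEAD4 of SB431542 cells at 57116521 (row 63494) and 57441885 (row 200092), and TEAD4 of DMSO cells at 57104651 (row 105419) and 57422401 (row 102842). Just outside, the regions started at 57099451 (row 290526) and 57452151 (row 379090) for SMAD2, at 57098571 (row 163842) and 57453452 (row 51955) for TEAD4 in SB431542 cells, and at 57097701 (row 245456) and 57456501 (row 63297) for TEAD4 in DMSO cells. None of these was in the first 10% of rows of its list.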

How the data were processed

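ChIP-seq regions of SMAD2 and TEAD4 were analysed from the lists the authors deposited, which give positions in bp (other values, such as a score or height, are not in them). Positions are on hg19, as the submitters' processing notes say. How reads were aligned, how regions were called, against which control and at what depth is not stated in the sources used here. Lists were tied to samples by the target and treatment in their names, which fit a single title each. Starts were raised by 1 bp for printing. A region overlapping by at least 1 bp was called shared, and widths are end minus start.

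Regions touching the window were members. The rule named the 5 lowest rows per list, overlapping pairs (beyond 10, those with the lowest sum of rows, the others being named in addition after their values were seen), regions at OTX2 or within 5 kb, and the neighbours of row 4. The members, lists and rule were chosen with earlier results of these data known. With 1 library per group no test was made, and exact intervals cover counting error only. Fixed windows holding no region of any list were left out, as were chromosomes Y and M. Stretches of the gene's length were kept where they or a neighbour held a region. Overlap counting was tested on simulated regions. The span of OTX2 came with the definition of the locus, strand and promoters from RefSeq. Python 3.11.15, NumPy 2.4.6, pandas 2.3.3, SciPy 1.17.1 and matplotlib 3.10.9 were used.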

Additional observations from a re-analysis of the deposited data

How the results depend on the processing

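Of 45 alternative values, 34 stayed close to the value given (shares and medians within the 95% interval, counts within 1.5-fold). Keeping the first 50% of rows of each list left 30 SMAD2 regions, 22 TEAD4 regions of SB431542 cells and 26 of DMSO cells in the window, and the first 10% left 9, 2 and 2, which is lower by construction. With 100 kb on either side of OTX2 in place of the window, TEAD4 in SB431542 cells had 28 regions, fewer because the span is shorter. In the first 50% of rows the overlap of SMAD2 with TEAD4 of SB431542 cells was 3.33%, and that of TEAD4 of SB431542 cells with SMAD2 was 4.55%. SMAD2 with TEAD4 of DMSO cells was 13.3% of the 30 regions left, in place of 8.77%. The reverse share was 11.5% of the 26 left, in place of 9.76%. Both stayed within the exact 95% interval of the value given (2.91 to 19.3% and 2.72 to 23.1%). The whole-list shares at this setting were not computed, so no change in overlap is read from them. TEAD4 of SB431542 cells with TEAD4 of DMSO cells went from 8.51% to 9.09%, and the reverse share from 9.76% to 7.69%. With 50% of both regions required, TEAD4 regions of SB431542 and DMSO cells shared 0% in both directions. The differing widths of the paired regions fixed this value, so it cannot judge agreement. With midpoints within 100 bp they shared 6.38% and 7.32%. The use of the first row of a sorted run in place of the row was chosen after seeing the data. No paired analysis was possible because there was 1 library in each group, and for the same reason none could be left out. With depth and threshold unknown, absence from a list sets no limit on binding.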
